A study of Mus musculus with 6 samples.

Results

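Transsulfuration is the route by which cells make cysteine from homocysteine, and it begins with cystathionine beta-synthase and ends with cystathionine gamma-lyase, abbreviated CSE. The same enzymes, together with 3-mercaptopyruvate sulfurtransferase, can release hydrogen sulfide, a gas that relaxes vessels and modifies protein cysteines in endothelium. Sulfide is burned in mitochondria to sulfite and sulfate, while surplus cysteine and cysteamine are oxidised to hypotaurine and taurine. The 10 genes described here encode these steps, and each was found in the deposited RNA sequencing table by an exact match of its symbol. They were 10 of 18956 genes in that table, and all 10 were among the 13750 genes that passed the filter on low values (at least 10 in at least 3 libraries). Cbs passed it only through the WT libraries, since its value was below 10 in each CSE-KO library.

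The libraries came from mouse lung endothelial cells, the lining cells of lung vessels, in 2 groups of 3. The groups were WT, titled Cre-neg, and CSE-KO, titled Cre-pos. CSE-KO names a knockout of CSE, the product of Cth, and Cre is the recombinase that cuts DNA between loxP sites. The Cre driver, the deleted exons, the age and sex of the mice, any treatment and the passage of the cells are not stated by the labels. Nor do the labels say whether replicates were separate animals or cultures, so p-values reflect library-to-library spread that may be technical.

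Values are normalized counts, that is read counts scaled between libraries and rounded. Library totals were 6028772 to 6052275 in WT and 5698922 to 5765008 in CSE-KO. The 7 endothelial markers summed to 12666 to 12912 in WT and 8339 to 8827 in CSE-KO, with Pecam1 and Cdh5 well detected in every library. All 7 were lower in every CSE-KO library. Cdh5 moved little (2815 to 2849 against 2666 to 2678), and Kdr (2119 to 2171 against 919 to 1066) and Tek (839 to 885 against 263 to 321) fell most. The 4 lymphatic endothelial markers summed to 9926 to 10167 in WT and 4454 to 5789 in CSE-KO. Prox1 (2773 to 2805 against 703 to 1085), Lyve1 and Flt4 were lower, while Pdpn was higher (901 to 965 against 1022 to 1037). The 7 macrophage markers summed to 921 to 949 in WT and 1133 to 1277 in CSE-KO. Cd14 dominated this sum in WT only, and the sum hides opposite moves. Cd14 was lower, at 775 to 788 in WT against 187 to 315 in CSE-KO. The other 6 were higher in every CSE-KO library, with Lyz2 at 23 to 37 against 408 to 466, Mpeg1 at 6 to 9 against 173 to 282, Adgre1 at 0 against 36 to 62 and Ptprc at 0 against 18 to 25. Mural markers (4 of 5 in the table) summed to 353 to 381 against 656 to 708, carried by Acta2 (249 to 271 against 605 to 651), while Pdgfrb (70 to 80 against 29 to 36) and Cspg4 (22 to 24 against 1 to 3) were lower. Fibroblast sums overlapped (1032 to 1099 against 1055 to 1356), with Dcn higher (73 to 76 against 282 to 347) and Col1a1 lower (571 to 580 against 357 to 569). The 3 mesothelial markers summed to 4 to 6 against 98 to 147, and epithelial sums overlapped (253 to 297 against 257 to 261). Of 3 liver markers only Apoa1 was in the table, at 10 or less in every library. The part of these cells in the differences below was not tested, and in bulk samples fewer cells of a type and less RNA per cell cannot be told apart. WT pairs differed by less than counting noise, with a mean squared difference over sum of 0.709 to 0.757 across tested genes, where counting noise alone gives about 1 for unscaled counts. CSE-KO 2 and 3 had a value of 0.86, and CSE-KO 1 stood apart from them (1.63 and 1.92). In genes under 10 normalized counts per kilobase of exon, the values were 0.933 to 0.99 in WT, 1.06 for CSE-KO 2 and 3, and 1.11 and 1.27 for CSE-KO 1 against them.

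Cth, the gene that the label CSE-KO names, was checked first. WT libraries 1 to 3 gave normalized counts of 29, 27 and 26, and the libraries labelled CSE-KO 1 to 3 gave 49, 43 and 63. Every library labelled CSE-KO was above every WT library, so the RNA level went against the label. The log2 difference (CSE-KO minus WT, on log2(value + 0.5)) was 0.89 with a 95% interval from 0.50 to 1.28 (SE 0.18, limma adjusted p = 0.00079), or 1.85-fold. The gene (ENSMUSG00000028179) spans 157894248 to 157925077 of chromosome 3 in mm10, minus strand, with 2791 exonic bases in 13 blocks. A value summed over the gene counts exons outside any deletion, so it does not check whether part of the gene was removed. WT and CSE-KO therefore stand below for the libraries labelled so.

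Of the 10 genes, 1 was higher and 5 were lower in the libraries labelled CSE-KO at an adjusted p under 0.05, and 4 did not pass. One of the 5 was Cbs, which the filter admitted only through WT. Across all tested genes 77.4% were called, 38.3% higher and 39.0% lower, so a call by itself did not set these enzymes apart. In 6 of the 10 the groups did not overlap, 1 with CSE-KO above and 5 with CSE-KO below WT. Groups did not overlap in 80.4% of all tested genes, with CSE-KO above in 40.0% and below in 40.4%. The log2 differences ran from −1.59 for Cbs to 0.89 for Cth with a median of −0.32, against a median of 0.001 and a middle 50% from −0.47 to 0.40 for all tested genes. Cth lay at or above 88.7% of tested genes and Cbs at or above 6.4%. With WT averaged into 1 sample and CSE-KO 2 and 3 averaged into 1 sample, the limma adjusted p of these 6 genes was between 0.00093 and 0.041. In that fit the spread comes only from the CSE-KO samples and from all genes together, and WT is assumed to vary alike, so it is a weak check. CSE-KO 1 was the CSE-KO library nearest to WT in 2 of these 6 genes, Cbs and Csad, and in 58.0% of all called genes.

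**Figure D1:**
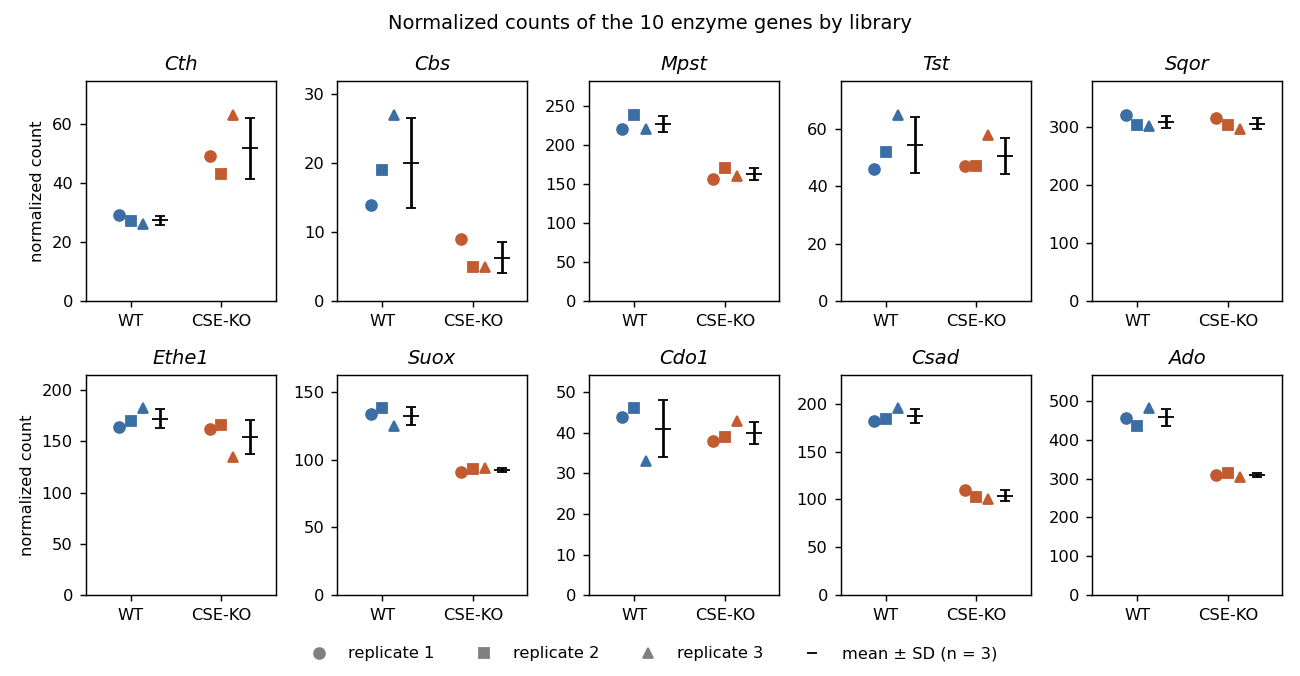
Normalized counts (y axis, from 0) of the 10 enzyme genes in each library of WT (blue) and CSE-KO (orange), with symbols for replicates and the mean ± SD (n = 3) beside them. Cth lies higher in CSE-KO, Cbs, Mpst, Suox, Csad and Ado lie lower, and the groups overlap for Tst, Sqor, Ethe1 and Cdo1.

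The 250 bases before and 50 after a RefSeq start (GRCm38.p6, the patch release of mm10) were matched by symbol for 7 of the 10 genes. Those of Cth, Tst and Cdo1 had no entry. Where a gene had several starts (2 for Csad and Ethe1, 3 for Mpst), the one nearest to the 5′ end of the deposited gene was taken. Promoters are shown for Cbs, which had the lowest log2 difference, for Csad and Ado, which had the smallest adjusted p-values, and for Ethe1, which was not called. All are written 5′ to 3′ on the strand of the gene, and capitals mark GC boxes (GGGCGG) and CCAAT boxes (CCAAT) on either strand. They lie at chr17:31637156-31637455 on the minus strand, chr15:102205003-102205302 on the minus strand, chr10:67548906-67549205 on the minus strand and chr7:24587293-24587592 on the plus strand, in that order. The start used was 33 bases from the deposited 5′ end for Cbs, 328 for Csad, 113 for Ado and 0 for Ethe1, and the Csad window lies wholly upstream of the deposited gene.
Cbs: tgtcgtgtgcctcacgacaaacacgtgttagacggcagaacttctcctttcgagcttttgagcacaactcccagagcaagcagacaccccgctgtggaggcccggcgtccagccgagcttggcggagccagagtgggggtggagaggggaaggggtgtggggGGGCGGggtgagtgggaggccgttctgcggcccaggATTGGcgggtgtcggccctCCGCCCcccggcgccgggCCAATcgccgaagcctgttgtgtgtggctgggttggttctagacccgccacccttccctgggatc
Csad: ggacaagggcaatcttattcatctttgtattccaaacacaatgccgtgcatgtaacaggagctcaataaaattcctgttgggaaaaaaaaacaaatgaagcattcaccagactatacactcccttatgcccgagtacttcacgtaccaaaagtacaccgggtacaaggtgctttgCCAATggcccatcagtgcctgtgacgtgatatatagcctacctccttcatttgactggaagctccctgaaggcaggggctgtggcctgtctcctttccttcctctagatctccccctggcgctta
Ado: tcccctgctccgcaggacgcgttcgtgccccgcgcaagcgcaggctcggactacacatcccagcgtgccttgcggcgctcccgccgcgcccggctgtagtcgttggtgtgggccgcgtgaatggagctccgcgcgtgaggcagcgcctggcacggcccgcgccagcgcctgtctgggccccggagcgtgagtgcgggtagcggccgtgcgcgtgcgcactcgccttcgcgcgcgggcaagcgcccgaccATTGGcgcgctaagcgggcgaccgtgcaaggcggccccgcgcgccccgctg
Ethe1: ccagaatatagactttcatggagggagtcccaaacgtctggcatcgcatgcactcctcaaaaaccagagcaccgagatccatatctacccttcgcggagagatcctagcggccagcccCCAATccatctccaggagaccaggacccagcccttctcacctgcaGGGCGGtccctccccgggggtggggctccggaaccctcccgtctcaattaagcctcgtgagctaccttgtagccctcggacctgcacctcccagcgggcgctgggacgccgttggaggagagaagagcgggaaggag

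The letters of these windows differed widely in composition. The share of G and C was 66.7% for Cbs, 47.3% for Csad, 76.0% for Ado and 61.7% for Ethe1, where the median of 32851 promoters was 52.7%. A GC box occurred 2 times for Cbs, 1 time for Ethe1 and 5 times for Suox, but in none of the windows of Mpst, Sqor, Csad and Ado. It was present in 35.7% of all promoters. A CCAAT box was found in 6 of the 7 windows, all except that of Mpst, against 37.4% of all promoters. The core of the ATF4 composite element (TGATGNAA) occurred once, in the window of Sqor, and in 4.0% of all promoters. That window starts from a RefSeq start 6476 bases from the 5′ end of the gene in the deposited table. The core of the antioxidant response element (TGACNNNGC, in 12.4% of promoters) was in none of the 7. Such matches describe letters and do not show that a factor binds.

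Among the enzymes that form cysteine and sulfide, Mpst fell where Cth rose. Cbs, which joins homocysteine and serine to cystathionine, was low throughout, with values of 14, 19 and 27 in the WT libraries against 9, 5 and 5 in the CSE-KO libraries. The WT libraries spread widely, yet none came as low as a CSE-KO library. Its log2 difference was −1.59 (95% interval −2.36 to −0.81, limma adjusted p = 0.0016), or 3.00-fold lower. With a pseudocount of 5 in place of 0.5 it was −1.13. Since Cbs was tested only because WT was high enough, its call describes these values and supports no count. Mpst, which takes sulfur from 3-mercaptopyruvate and passes it to thioredoxin, gave 221, 239 and 221 in WT against 157, 171 and 160 in CSE-KO. These groups stood clearly apart, and Mpst fell by 0.48 on the log2 scale (95% interval −0.63 to −0.33, limma adjusted p = 5.0e-05).

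Within a library, a ratio of genes per kilobase of exon does not depend on how libraries are scaled. The log2 ratio of Cth to Cbs was 2.45, 1.92 and 1.37 for WT against 3.81, 4.41 and 4.95 for CSE-KO. On average Cth was, per kilobase, at 3.76 times the level of Cbs in WT and at 20.9 times in CSE-KO. Joining all annotated exons understates Cbs, with 7485 bases against 2791 for Cth. As normalized counts, the means of Cth and Cbs were 27.3 and 20.0 in WT and 51.7 and 6.33 in CSE-KO. The lowest CSE-KO ratio lay above the highest WT ratio. This follows from the values of both genes given above and is no separate evidence, so it is given with no test.

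Mpst and Tst are neighbours on chromosome 15 that point away from each other. Tst ends at 78405907 on the minus strand and Mpst begins at 78406416 on the plus strand, with 508 bases between them on mm10.  Tst, the mitochondrial rhodanese that moves sulfur from thiosulfate, gave 46, 52 and 65 in WT against 47, 47 and 58 in CSE-KO. All CSE-KO values lay within the WT range, and the log2 difference of −0.09 was not called, with a 95% interval from −0.45 to 0.27 (limma adjusted p = 0.62). It overlapped the interval of Mpst. The log2 ratio of Mpst to Tst per kilobase of exon was 2.81, 2.75 and 2.32 for WT against 2.29, 2.41 and 2.02 for CSE-KO, and an exact two-sided permutation test of the ratio gave p = 0.2. With 3 libraries a group this permutation test cannot go below 0.1, so it could not resolve a difference between the neighbours.

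**Figure D2:**
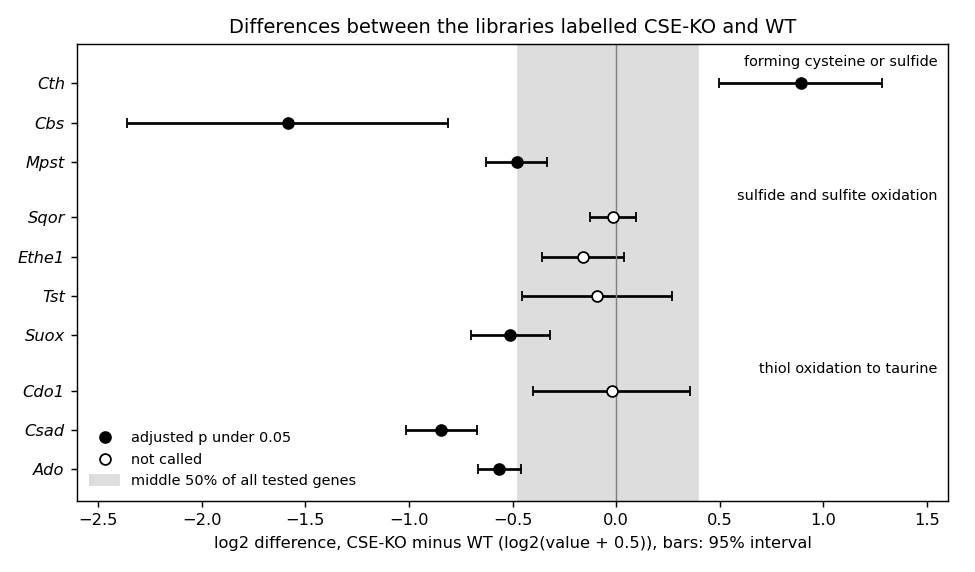
Log2 difference of CSE-KO minus WT (x axis) with its 95% interval from limma for each enzyme gene, grouped by step, and the middle 50% of all tested genes in grey (−0.47 to 0.40). Filled points passed at an adjusted p under 0.05. The points of Cbs, Csad, Ado and Suox lie left of the grey band, Mpst at its edge, Cth right of it, and Sqor, Ethe1, Tst and Cdo1 near 0.

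In the mitochondrial chain that burns sulfide, the enzymes that act early did not pass the test and the last one fell. Sqor hands electrons from sulfide to ubiquinone and gave 322, 304 and 303 in WT against 317, 304 and 298 in CSE-KO. Its libraries were interleaved between the groups. The 95% interval of its log2 difference ran from −0.13 to 0.09, that is from −8.30% to 6.74% (limma adjusted p = 0.79), the narrowest of the 4 intervals that took in 0. Ethe1 oxidises the persulfide that Sqor makes, giving sulfite, and gave 164, 170 and 182 in WT against 162, 166 and 135 in CSE-KO. Only CSE-KO 3 lay well below the WT range, and the log2 difference of −0.16 (95% interval −0.36 to 0.04, limma adjusted p = 0.13) did not pass. The log2 ratio of Ethe1 to Sqor per kilobase of exon overlapped between the groups, from 0.49 to 0.73 in WT and from 0.32 to 0.59 in CSE-KO. An exact two-sided permutation test gave p = 0.3, where 0.1 is the smallest possible.

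Suox, the molybdenum enzyme that turns sulfite into sulfate, gave 134, 138 and 125 in WT against 91, 93 and 94 in CSE-KO. The CSE-KO libraries were nearly level with each other and all below WT. Suox fell by 0.51 on the log2 scale (95% interval −0.70 to −0.32, limma adjusted p = 0.00023). The SD among the CSE-KO libraries was 1.53, under the 9.63 that counting noise would give at that mean. The same held in 8 of the 10 genes in CSE-KO and in 6 of 10 in WT. An SD from 3 libraries often falls under counting noise by chance, so these counts do not show unusually small SDs.

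The dioxygenases and the decarboxylase that lead to taurine also differed among themselves. Cdo1 adds oxygen to cysteine and opens its breakdown to sulfinate. It gave 44, 46 and 33 in WT against 38, 39 and 43 in CSE-KO. The groups overlapped, and the 95% interval of its log2 difference, from −0.40 to 0.35, left room for changes from −24.2% to 27.9% (limma adjusted p = 0.91). Csad, which removes carbon dioxide from cysteine sulfinate to give hypotaurine, gave 182, 184 and 195 in WT against 110, 102 and 100 in CSE-KO. All 3 CSE-KO libraries were far below WT, and Csad fell by 0.84 on the log2 scale (95% interval −1.02 to −0.67, limma adjusted p = 1.8e-06), that is, its level dropped by 44.3%. Its exons share 278 bases (7.3%) with those of Zfp740 on the opposite strand, which was at 671 to 701 in WT and 615 to 636 in CSE-KO. Whether reads were counted by strand is not stated by the labels.

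Ado, which oxidises cysteamine to hypotaurine and also acts on proteins that begin with cysteine, had the smallest adjusted p of the 10. Its values were 457, 437 and 481 in WT against 310, 314 and 305 in CSE-KO, with no overlap and little spread in CSE-KO. Ado fell by 0.56 on the log2 scale (95% interval −0.67 to −0.46, limma adjusted p = 6.9e-07), that is, its level dropped by 32.4%. Csad and Ado, which form hypotaurine, were thus both lower in CSE-KO, as were 39.0% of all tested genes. The log2 ratio of Csad to Cdo1 per kilobase of exon was 0.82, 0.77 and 1.32 for WT against 0.30, 0.16 and −0.01 for CSE-KO. Csad stood at 1.96 times the level of Cdo1 in WT and at 1.11 times in CSE-KO, with ratios that did not overlap (exact two-sided permutation p = 0.1, the smallest possible here).

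**Figure D3:**
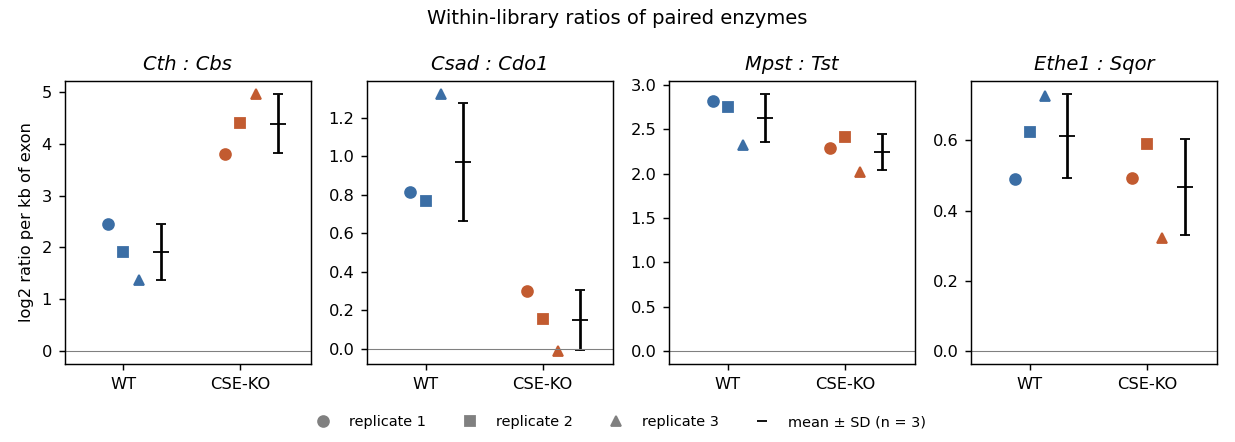
Within-library log2 ratios per kilobase of exon (y axes, each with its own range) of Cth to Cbs, Csad to Cdo1, Mpst to Tst and Ethe1 to Sqor in each library, with the mean ± SD (n = 3) per group. The groups are apart for Cth to Cbs and Csad to Cdo1 and overlap for Mpst to Tst and Ethe1 to Sqor.

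Levels of different genes were compared as normalized counts per kilobase of exon, with all annotated exons of a gene joined, which understates genes with many alternative exons such as Cbs (7485 bases in 21 blocks). In WT, Ethe1 was the highest at 116 ± 6.18 (SD, n = 3), followed by Mpst at 106 ± 4.85, Ado at 103 ± 4.96 and Sqor at 75.8 ± 2.62. Suox at 53.0 ± 2.67 and Csad at 48.8 ± 1.83 came next, then Cdo1 at 24.9 ± 4.26 and Tst at 17.2 ± 3.07. Cth at 9.79 ± 0.55 and Cbs at 2.67 ± 0.88 were the lowest. Among neighbours in this order, the library ranges overlapped for Ethe1 and Mpst, Mpst and Ado, Suox and Csad, and Cdo1 and Tst. Among Cth, Cbs and Mpst, the members that can form sulfide, Mpst thus had by far the highest transcript level. Both transsulfuration genes were at or below the 15.1th percentile of tested genes.

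In CSE-KO the order per kilobase changed at several places. Ethe1 stayed on top at 104 ± 11.4 (SD, n = 3), while Mpst at 75.9 ± 3.44 and Sqor at 75.0 ± 2.38 overlapped, and Ado at 69.7 ± 1.01 came below Sqor. Csad at 27.2 ± 1.38 came down to the range of Cdo1 at 24.3 ± 1.61. Cth at 18.5 ± 3.68 rose to the range of Tst at 16.0 ± 2.01, and Cbs was at 0.85 ± 0.31. Mpst remained above Cth in every library.

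**Figure D4:**
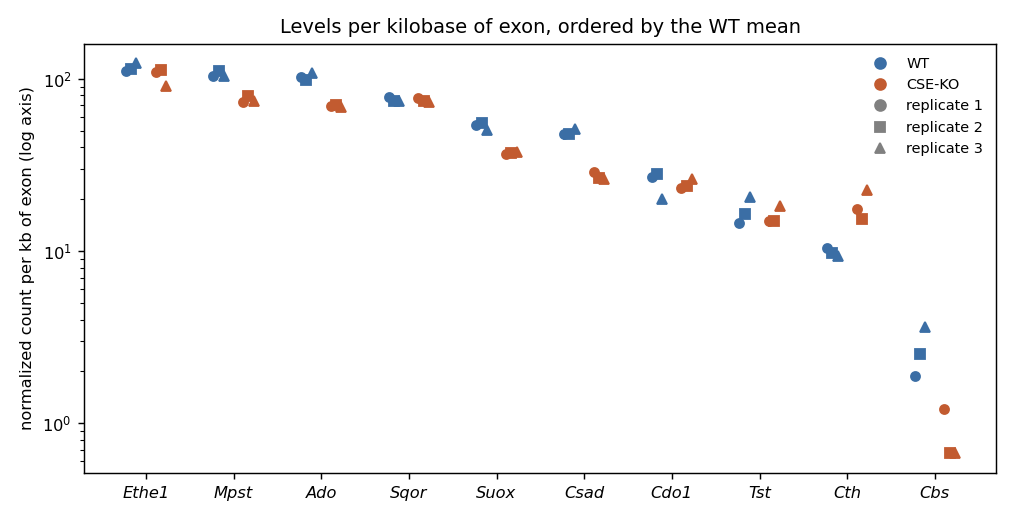
Normalized counts per kilobase of exon (y axis, log scale) of the 10 genes in each library, ordered by the WT mean, with WT in blue and CSE-KO in orange. Ethe1, Mpst and Ado lie highest and Cth and Cbs lowest in WT, and Cth meets Tst in CSE-KO.

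Genes that feed or assist these enzymes were followed in 5 lists of 40 genes, chosen by function with earlier results of these data known. Of the 31 that were tested, 10 rose, 15 fell and 6 did not pass, with a median log2 difference of −0.09 against 0.001 for all tested genes. These counts are near the background given above, with 77.4% of all tested genes called, 38.3% higher and 39.0% lower. With equal totals 14 rose and 14 fell. The background moved as well, since 55.8% of all called genes were then higher, against 49.5% in the main fit. The counts by direction thus depended on the scaling for the lists and for all genes alike. The 15 that fell in the main fit include Pdxp, which the filter admitted only through WT. The same background applies to each list, and no list is set apart by its count. Of the 14 tested genes for sulfur transfer and thioredoxin, 5 rose and 7 fell. Cars, a cysteinyl-tRNA synthetase that can also make cysteine persulfide, rose from 723 ± 26.1 to 1542 ± 39.4 (SD, n = 3). Its mitochondrial relative Cars2 fell from 195 ± 3.0 to 130 ± 17.5, a log2 difference of −0.59. Got1, the cytosolic aminotransferase that can supply 3-mercaptopyruvate to Mpst, gave 396, 392 and 392 in WT against 729, 731 and 720 in CSE-KO, while its mitochondrial relative Got2 was at 536 ± 14.9 and 546 ± 11.0 and was not called (limma adjusted p = 0.53). Cars2 and Got2 were named after their values were seen. Thioredoxin reductase Txnrd1 rose by 0.82 on the log2 scale, and the aminotransferase Kyat3 fell from 113 ± 5.00 to 57.0 ± 6.00. Selenbp1, which oxidises methanethiol and releases sulfide, fell by 1.77 on the log2 scale (limma adjusted p = 3.3e-05); it was picked out after its values were seen.

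The molybdenum cofactor that Suox needs is made by Mocs1, Mocs2, Mocs3 and Gphn. Of these 4, 3 rose and none fell, where 38.3% of all tested genes rose. Gphn gave 196, 235 and 217 in WT against 312, 318 and 340 in CSE-KO (log2 difference 0.58), and Mocs3 at 74, 75 and 68 against 110, 114 and 120 (0.66). Mocs2 rose by 0.19 and Mocs1 was not called (limma adjusted p = 0.53). Of the genes that set the level of pyridoxal phosphate, the cofactor of Cbs, Cth and Csad, 2 were followed. Both fell, where 39.0% of all tested genes fell. The kinase Pdxk went from 272 ± 18.0 to 220 ± 10.7 and the phosphatase Pdxp, which removes the cofactor, from 16.7 ± 0.58 to 8.67 ± 2.08. Pdxp was below 10 in CSE-KO 1 and 2 and passed the filter only through the WT libraries, so its fall supports no count.

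Downstream of the enzymes, 5 of 9 tested genes for sulfate transport and activation fell and 2 rose, near the 77.4% called over all tested genes. Papss1, which makes the activated sulfate donor, fell from 568 ± 9.64 to 330 ± 6.03 (log2 difference −0.78). The Golgi carrier of that donor, Slc35b2, gave 405, 433 and 464 in WT against 266, 230 and 204 in CSE-KO. The sulfate carrier Slc26a2 fell from 471 ± 4.51 to 356 ± 13.6, and Slc26a11 rose by 0.56. Slc25a10, a mitochondrial carrier of dicarboxylates that also moves sulfate and thiosulfate, gave 406, 399 and 392 in WT against 147, 83 and 89 in CSE-KO (log2 difference −1.95, limma adjusted p = 0.00061); it too was picked out after its values were seen. The taurine transporter Slc6a6 fell from 1742 ± 17.9 to 1275 ± 24.6, a log2 difference of −0.45, and the amino acid carrier Slc36a1 was not called (limma adjusted p = 0.070). Gadl1, Fmo1 and Baat, the other taurine genes, were below the filter.

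**Figure D5:**
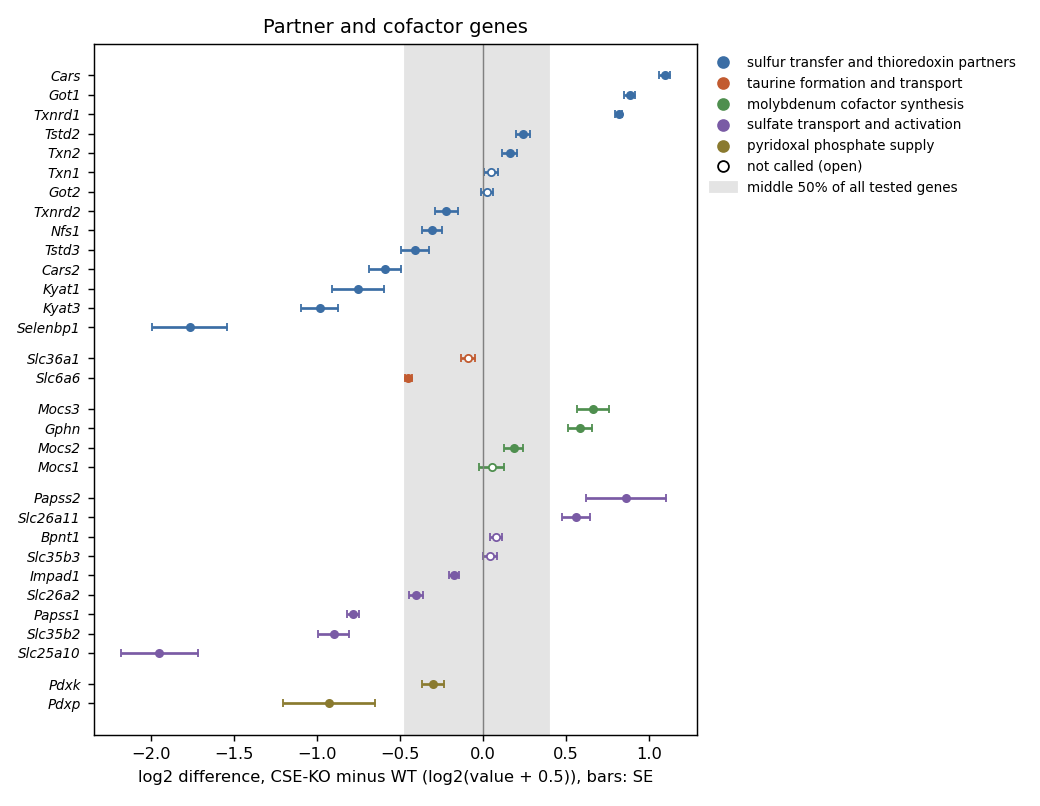
Log2 difference of CSE-KO minus WT (x axis, bars are SE from limma) for the 31 tested partner and cofactor genes, coloured by list, with open points for the 6 that were not called and the middle 50% of all tested genes in grey. The molybdenum cofactor genes lie right of 0, and Slc25a10 and Selenbp1 lie farthest left.

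For Cth, the genes whose values were most like it over the 6 libraries (Pearson r on log2 values, among 10852 tested genes with a mean of at least 50) were Arhgap39 (0.996), Ltbp2 (0.995), Nav2 (0.995), Tmem45a (0.994) and Srsf11 (0.994). All 5 had, like Cth, CSE-KO 3 highest and CSE-KO 2 lowest among the CSE-KO libraries. An r over 0.9 was reached by 2993 genes, since the points share the 2 groups, so the likeness is a description only.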

How the data were processed

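RNA was sequenced from 6 libraries of mouse lung endothelial cells, 3 per group. Per the labels' protocols, stranded mRNA libraries were made from 300 ng of total RNA and read as 75 bp single ends. Per the submitters' processing notes, which give no role or order, the build was mm10 and the tools included DESeq2 1.26.0, featureCounts 1.6.5, STAR 2.7.3a, Trimmomatic 0.39 and Picard 2.21.7. The authors deposited one whole-number score per gene and library. It was read as a normalized count from its values, since recomputed median-ratio size factors were 1.0026 to 1.0083 and no header states the unit. Reads per library are therefore known only approximately, and their number limits the precision of low genes. Intervals cover the spread between libraries.

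Values were taken as log2(value + 0.5). All 13750 genes with at least 10 in at least 3 libraries were fitted with limma 3.58.1 in R 4.3.3 (group term, mean trend, robust variances, two-sided, Benjamini-Hochberg over all tested genes). The 0.5 added before the log understates changes of low genes. The model was tested on simulated data. Exonic lengths came from GENCODE release M21, in which 9 of the 10 genes had the deposited coordinates. Ratios were tested by exact permutation. Alternatives covered scaling, pseudocount, filter, left-out libraries, the replicate number, variance settings, averaged libraries and a minimum fold. Genes named were the 10 members, up to 4 genes per partner list by adjusted p, and 5 genes most like Cth. Cars2, Got2, Selenbp1 and Slc25a10 were added after their values were seen. Members and lists were chosen with earlier results of these data known. Some of the listed genes (Dao, Ddo, Selenbp2, Slc26a1 and Slc13a4) were not analysed here, and 1 gene of the partner lists is not reported here.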

Additional observations from a re-analysis of the deposited data

How the results depend on the processing

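All 6 called genes kept their direction and their call under every alternative in which they were tested, which were 18 each for Mpst, Suox, Csad and Ado and 17 each for Cth and Cbs. Cbs, one of the 6, passed the main filter only through WT, so its call supports no count here either. With a filter at 50, Cth, Cbs and Cdo1 were not tested, so 0 members were called higher. The log2 difference ranged from 0.74 to 1.01 for Cth, −1.85 to −1.13 for Cbs, −0.52 to −0.41 for Mpst, −0.55 to −0.44 for Suox, −0.88 to −0.77 for Csad and −0.60 to −0.49 for Ado. The 4 genes that were not called stayed so, but the sign of 3 of them turned. Sqor was at 0.058 with equal totals and 0.029 with upper-quartile scaling, Cdo1 at 0.050 and 0.021, and with single libraries left out Sqor ran from −0.040 to 0.013, Cdo1 from −0.170 to 0.067 and Tst from −0.204 to 0.043. Equal totals moved the median of all tested genes to 0.08. A test against a fold of 1.2 called 6711 genes in place of 10639, with all 6 members among them. With the replicate number as a block, 10440 genes and the same number of members (1 higher, 5 lower) were called, with an adjusted p of 0.0026 for Cth and 0.0058 for Cbs. Deviations of same-numbered libraries had correlations of −0.001, 0.02 and 0.011, so the numbers gave no sign of pairing. Counting error limits Cbs, Cth, Cdo1 and Tst most, since their values were below 70 in every library.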
